A study of Mus musculus with 22 samples.

Results

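The 45 genes described here are response genes of interferon-gamma and of the type I interferons, followed across implanted mouse pancreatic tumours after 2 immune treatments given alone or together. They were taken by gene symbol from a fixed list, and all 45 were found among the 17966 genes of the deposited table. By role they comprised 1 ligand and 2 receptor chains (Ifng, Ifngr1, Ifngr2), 4 transcription factors (Stat2, Irf1, Irf7, Irf9), 2 feedback inhibitors (Socs1, Usp18), the serpin Serpina3g, 13 GTPases (Gbp2 to Gbp9, Igtp, Irgm1, Irgm2, Iigp1, Tgtp1) and 22 antiviral genes. A filter on low values (at least 10 normalized counts in at least 5 of the 22 tumours) left 44 of them among 14278 genes tested, and Oas1a did not pass. Ifng reached 10 normalized counts in 6 anti-CD40 and 5 combination tumours, but in 1 beta-glucan and 2 untreated tumours. It therefore passed only through the groups in which it was highest. Gbp6 reached 10 normalized counts in 5 of 5 combination tumours and in 1 beta-glucan, 3 anti-CD40 and 1 untreated tumour.

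Tumours were grown from PDA.7940B, a polyclonal line derived from the KPC mouse model of pancreatic ductal adenocarcinoma, implanted at the orthotopic site, and the genotype was labelled wild type in every sample. Beta-glucan tumours (n = 6) had received 1 intravenous dose of 1.2 mg beta-glucan, a polysaccharide found in the walls of fungi and sensed by myeloid cells. Anti-CD40 tumours (n = 6) had received 1 intraperitoneal dose of 0.1 mg of the antibody FGK45, which activates the receptor CD40 on antigen-presenting cells. Combination tumours (n = 5) had received beta-glucan and anti-CD40 at doses that the labels do not state, and untreated tumours (n = 5) had received neither. Treated tumours were taken 10 days after treatment, and the labels give no such day for untreated tumours. RNA from sections of fixed, paraffin-embedded tissue was read by sequencing from transcript 3′ ends. All tumours came from 1 cell line, and the labels give replicate numbers without saying that each tumour came from a separate mouse. P-values therefore measure the spread between these tumours. Values of combination tumours are listed for replicates 1 to 5, and those of untreated tumours for replicates 1, 2, 3, 5 and 6. Combination tumour 5 is numbered by its label, whereas its column in the deposited table carries the number 6.

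Interferon-gamma is made mainly by activated T cells and natural killer cells, and signalling from its receptor acts on GAS elements in target promoters. Type I interferons act through a complex that contains STAT2 and IRF9 and binds ISRE elements. Guanylate-binding proteins (Gbp genes) and immunity-related GTPases (Igtp, Irgm1, Irgm2, Iigp1, Tgtp1) take part, as effectors or regulators, in the defence of mice against intracellular pathogens. They are strongly induced by interferon-gamma, whereas most of the antiviral genes are best known as type I interferon targets. The target sets overlap.

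The promoters of 5 members are printed because they show both elements in genes that the results turn on, 2 GTPases, the factor Irf1 and 2 antiviral genes. Each line gives the 250 bases before the transcription start from RefSeq on GRCm38.p6, 5′ to 3′ in the direction of the gene. Gbp5 covers chr3:142496684-142496933 (plus strand), Igtp chr11:58199306-58199555 (plus strand), Irf1 chr11:53769764-53770013 (plus strand), Isg15 chr4:156200819-156201068 (minus strand) and Ifit1 chr19:34640639-34640888 (plus strand). Capitals mark matches to an ISRE-type motif, TTTCNNTTTC on either strand, or to a GAS-type motif, TTCNNNGAA, which reads the same on both strands.
Gbp5: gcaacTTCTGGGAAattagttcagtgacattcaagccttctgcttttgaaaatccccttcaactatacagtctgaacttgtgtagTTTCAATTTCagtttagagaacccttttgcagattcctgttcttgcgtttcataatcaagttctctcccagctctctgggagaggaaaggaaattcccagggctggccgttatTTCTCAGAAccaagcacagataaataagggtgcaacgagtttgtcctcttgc
Igtp: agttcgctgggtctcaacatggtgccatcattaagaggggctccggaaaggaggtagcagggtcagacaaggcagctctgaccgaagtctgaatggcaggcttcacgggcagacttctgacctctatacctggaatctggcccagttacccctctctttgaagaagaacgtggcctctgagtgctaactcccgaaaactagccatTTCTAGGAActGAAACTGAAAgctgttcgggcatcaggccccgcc
Irf1: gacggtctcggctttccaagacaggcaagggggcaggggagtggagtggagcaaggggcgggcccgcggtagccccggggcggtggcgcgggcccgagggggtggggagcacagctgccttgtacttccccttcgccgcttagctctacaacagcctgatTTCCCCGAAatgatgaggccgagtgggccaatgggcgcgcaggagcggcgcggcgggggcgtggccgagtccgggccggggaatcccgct
Isg15: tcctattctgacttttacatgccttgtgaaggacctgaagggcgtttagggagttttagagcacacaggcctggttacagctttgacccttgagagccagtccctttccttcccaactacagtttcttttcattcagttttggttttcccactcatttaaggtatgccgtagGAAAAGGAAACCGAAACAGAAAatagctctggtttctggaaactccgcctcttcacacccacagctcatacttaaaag
Ifit1: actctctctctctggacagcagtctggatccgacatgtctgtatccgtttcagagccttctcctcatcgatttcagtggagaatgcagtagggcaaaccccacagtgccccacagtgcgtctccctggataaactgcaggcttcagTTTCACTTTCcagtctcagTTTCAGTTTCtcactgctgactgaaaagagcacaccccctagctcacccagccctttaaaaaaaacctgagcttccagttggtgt
The Gbp5 promoter held 1 ISRE-type and 2 GAS-type matches, and that of Igtp held 1 of each. In Irf1 a single GAS-type match, TTCCCCGAA, was found and no ISRE-type match. Isg15 held 3 ISRE-type matches, of which neighbouring ones overlap, and Ifit1 held 2, with no GAS-type match in either. RefSeq promoters, here 300 bases including 50 after the start, were found for 33 of the 45 members. Of the 8 GTPases with a promoter, 8 held the ISRE-type motif and 5 the GAS-type motif; of the 16 antiviral genes, 10 held the ISRE-type and 3 the GAS-type motif. Among all 27025 genes with a promoter, 3.99% held the ISRE-type and 9.55% the GAS-type motif. A match describes letters in this window and not a bound site.

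Depth was 6327092 to 21173617 reads per tumour. Reads of 22 genes of pancreatic acinar cells, the normal tissue around such tumours, made up 0.541% to 16.9% of reads in beta-glucan, 0.61% to 64.7% in anti-CD40, 0.58% to 34.8% in combination and 0.0179% to 17.1% in untreated tumours. They exceeded 30% in 5 tumours (anti-CD40 2, 3 and 6, combination 4 and 5), and counts are given with and without these tumours where they matter. The epithelial list (8 genes, among them Krt19 and Epcam) was present in every tumour, with a summed level of 10179 to 26513 normalized counts in beta-glucan (median 19101), 4104 to 22775 in anti-CD40 (median 16381), 3493 to 8526 in combination (median 4117) and 30893 to 41760.3 in untreated tumours (median 39832). In bulk tissue, fewer cells of a type and less RNA per cell cannot be told apart.

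Some of these genes rose in each of the 3 treated groups, most of them in the combination, and none of the 44 tested fell in any comparison with untreated tumours (limma, Benjamini-Hochberg over all genes, adjusted p under 0.05). After beta-glucan, 9 rose: 6 GTPases, Irf1, Serpina3g and the antiviral gene Trim30a. After anti-CD40, 24 rose, among them Ifng, 11 of 13 GTPases and 8 of 21 antiviral genes. In the combination, 32 rose, among them Ifng, 12 GTPases and 14 antiviral genes. Of all 14278 genes, 5.09% were called higher after beta-glucan, 11% after anti-CD40 and 18.2% in the combination, and 1.32%, 7.56% and 15.8% lower. The median log2 difference over the 44 members was 0.46, 1.19 and 1.56 in these comparisons, beside 0.02, 0.00 and -0.01 over all genes. All 9 genes called after beta-glucan were among the 24 called after anti-CD40, and all 24 were among the 32 of the combination; the comparisons share the same 5 untreated tumours. Scaling the tumours to equal totals left 1, 12 and 18 members called, all higher. Over all genes, 93.4%, 22.4% and 33.2% of the calls were then higher, beside 79.4%, 59.3% and 53.6% in the main analysis.

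**Figure D1:**
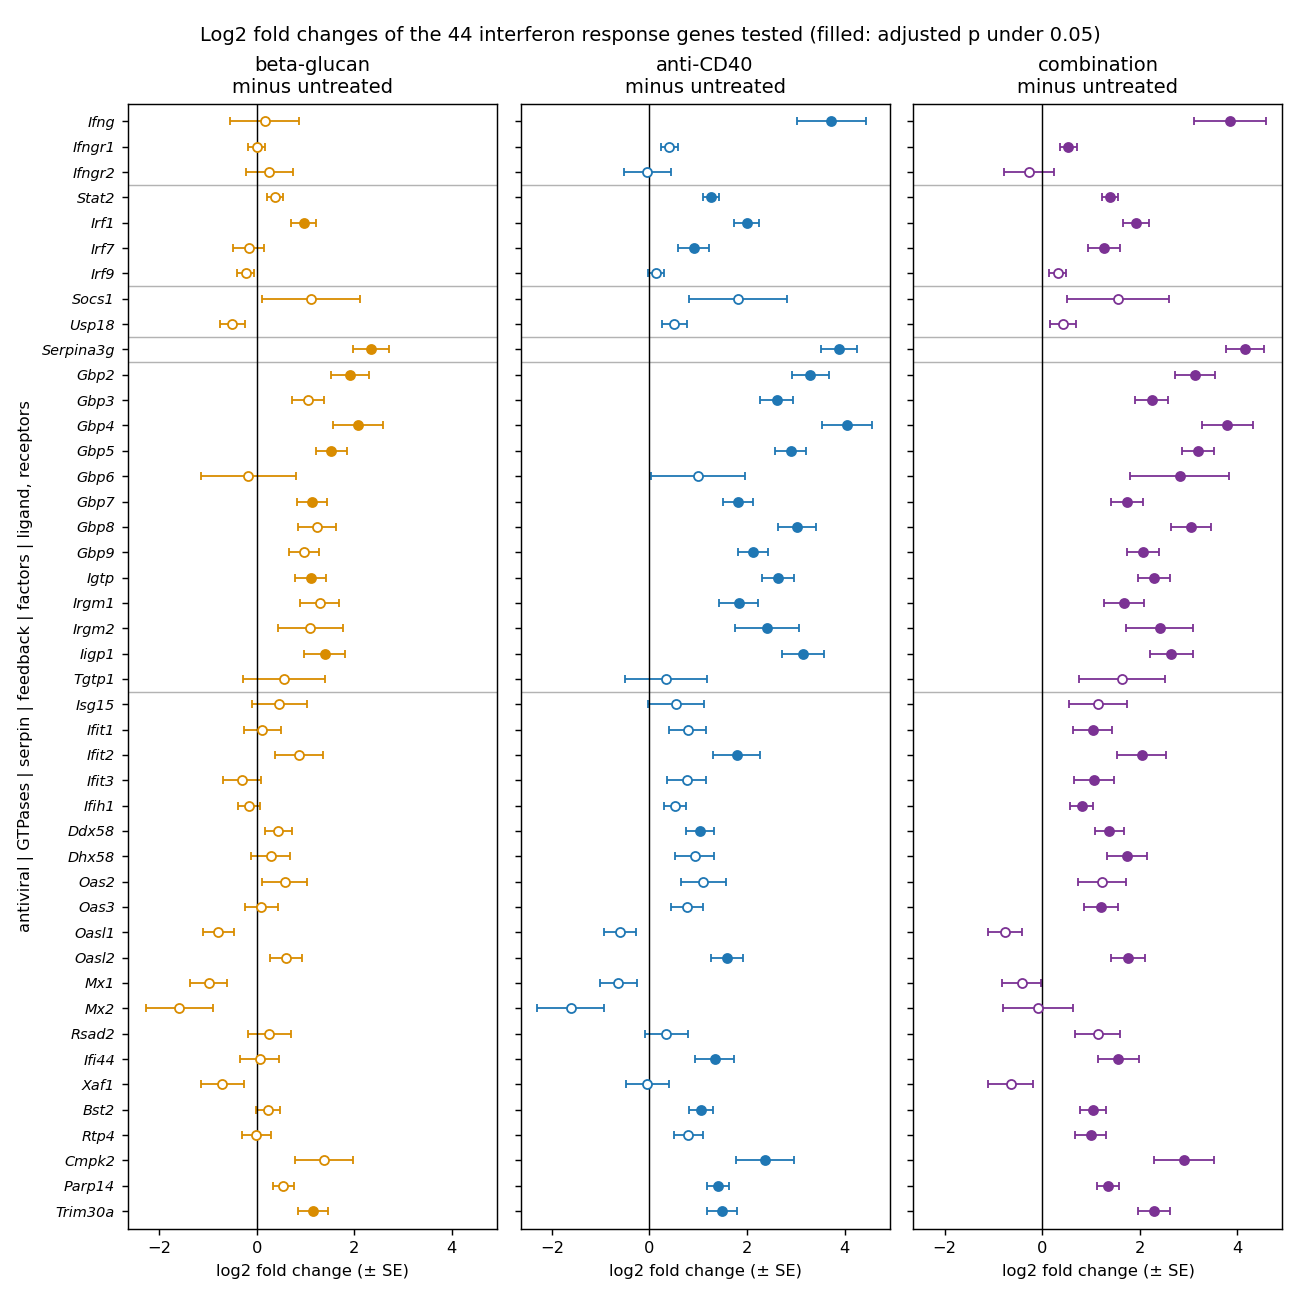
Log2 fold change of each of the 44 tested genes, as treated minus untreated on the log2(normalized count + 1) scale, with the standard error from limma as bars; filled points passed an adjusted p of 0.05 and horizontal lines separate the role groups. Filled points number 9 for beta-glucan, 24 for anti-CD40 and 32 for the combination, and the median of the GTPases is 1.13, 2.61 and 2.41, against 0.24, 0.80 and 1.15 for the antiviral genes.

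Separation of tumours gave a like order. No member but Serpina3g was above every untreated tumour in every beta-glucan tumour, where 3.98% of all genes were. In every anti-CD40 tumour 20 members lay above every untreated tumour (5.03% of all genes), and in every combination tumour 24 did (11.7% of all genes).

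Ifng, the interferon-gamma gene, was higher after anti-CD40 and in the combination, the groups through which it passed the filter on low values. Its level was 1.06 to 17.2 normalized counts in beta-glucan tumours (median 3.89), 19.8 to 138 in anti-CD40 tumours (median 59.6), 82.3, 77.4, 59.2, 25.2 and 87.3 in combination tumours, and 4.16, 0.863, 10.5, 12.6 and 0 in untreated tumours. Every anti-CD40 and combination tumour lay above every beta-glucan and every untreated tumour, whereas the beta-glucan and untreated ranges overlapped. On the log2(normalized count + 1) scale, Ifng rose by 3.72 ± 0.71 (SE) after anti-CD40 (limma adjusted p = 6.1e-04) and by 3.84 ± 0.74 in the combination (adjusted p = 2.9e-04), or 13.2-fold and 14.3-fold on that scale. After beta-glucan the difference was 0.17 (95% interval -1.29 to 1.63, adjusted p = 0.936), and 1 to 18 reads per tumour lay behind the beta-glucan values. The receptor chains showed smaller differences. Ifngr1, the ligand-binding chain, had 1931 to 2579.5 normalized counts in beta-glucan (median 2152), 2301 to 4699 in anti-CD40 (median 2625), 3353, 2809.6, 3051, 4302 and 2481 in combination, and 2399, 2182, 2004, 2293 and 2011 in untreated tumours. It rose by 0.53 ± 0.18 in the combination (adjusted p = 0.0227), and the differences after beta-glucan and anti-CD40 were 0.0044 and 0.41 (adjusted p = 0.994 and 0.097). Ifngr2, the signalling partner chain, had 286 to 615 normalized counts in beta-glucan (median 514), 168 to 581 in anti-CD40 (median 414), 451, 511, 392, 73.1 and 403 in combination, and 448, 559, 536, 522 and 97.7 in untreated tumours. All groups overlapped, with 1 low tumour each in the combination and untreated groups. Its differences were 0.26 ± 0.48, -0.04 ± 0.48 and -0.27 ± 0.50 after beta-glucan, anti-CD40 and the combination, and none passed (adjusted p = 0.83, 0.964 and 0.717).

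Among the transcription factors, Irf1 and Stat2 gave the clearest differences. Irf1, a factor induced by interferon-gamma that drives Gbp genes and antigen presentation, had 1615 to 3267 normalized counts in beta-glucan (median 2677) and 3404 to 7397 in anti-CD40 tumours (median 5276). Combination tumours had 6163, 5011, 5275, 3298 and 4424, and untreated tumours 1944, 1485, 1400.4, 1077 and 709. The beta-glucan range overlapped that of untreated tumours and the other ranges did not. Irf1 rose by 0.96 ± 0.26 after beta-glucan (adjusted p = 0.0247), 1.99 ± 0.26 after anti-CD40 (8.9e-06) and 1.92 ± 0.27 in the combination (8.3e-06). Stat2, a subunit of the type I complex, had 231 to 368 normalized counts in beta-glucan (median 294), 446 to 707 in anti-CD40 (median 529), 678, 596, 539, 582 and 513 in combination, and 219.6, 189.9, 232, 202 and 268 in untreated tumours. The anti-CD40 and combination tumours were all above the other 2 groups. Stat2 rose by 1.27 ± 0.16 after anti-CD40 (adjusted p = 8.3e-06) and by 1.39 ± 0.17 in the combination (1.7e-06), and its difference after beta-glucan was 0.39 (adjusted p = 0.189).

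Irf7, which amplifies type I interferon transcription, had 85.5 to 397 normalized counts in beta-glucan (median 268), 367 to 834 in anti-CD40 (median 499), 749, 621, 718, 506 and 659.5 in combination, and 319, 142, 222, 301 and 459.6 in untreated tumours. Combination tumours lay above all untreated tumours, and the anti-CD40 range overlapped. The log2 rise was 0.91 ± 0.32 after anti-CD40 (adjusted p = 0.0469) and 1.26 ± 0.33 in the combination (adjusted p = 0.0046), with -0.16 after beta-glucan (adjusted p = 0.844). The anti-CD40 call did not pass in 21 of 31 alternative analyses, in which adjusted p ranged between 0.011 and 0.595. Irf9, the DNA-binding subunit of the type I complex, had 942 to 1293 normalized counts in beta-glucan (median 1099), 1138 to 1885 in anti-CD40 (median 1451), 1666, 1332, 1673, 2016 and 1428 in combination, and 1486, 989, 1209, 1172 and 1712 in untreated tumours. All treated groups overlapped untreated tumours, and it passed in no comparison with untreated tumours (-0.23 ± 0.17, 0.14 ± 0.17 and 0.32 ± 0.17; adjusted p = 0.514, 0.617 and 0.169).

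Neither feedback inhibitor passed against untreated tumours. Socs1, which blocks the kinases below the receptors, had 8.55 to 226 normalized counts in beta-glucan (median 74.0), 27.2 to 289.6 in anti-CD40 (median 102), 86.2, 320.4, 73.4, 9.30 and 134 in combination, and 49.9, 108, 64.9, 14.9 and 1.25 in untreated tumours. Its tumours were widely spread and overlapped in every group. It differed by 1.12, 1.81 and 1.56 after beta-glucan, anti-CD40 and the combination, with 95% intervals of -0.97 to 3.203, -0.27 to 3.90 and -0.62 to 3.74 (adjusted p = 0.609, 0.228 and 0.271). Usp18, which strips ISG15 from proteins and restrains the type I receptor, had 77.5 to 125 normalized counts in beta-glucan (median 102.4), 139.9 to 282 in anti-CD40 (median 198), 219, 168, 182, 198 and 191 in combination, and 146, 86.3, 112, 298 and 134 in untreated tumours. Untreated tumour 5 was above every treated tumour, and the groups overlapped untreated tumours. Usp18 differed by -0.50 ± 0.26, 0.51 ± 0.26 and 0.43 ± 0.27 (adjusted p = 0.295, 0.179 and 0.229).

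Serpina3g, a mouse serpin that inhibits cysteine cathepsins and is induced by interferon-gamma, had 195 to 475 normalized counts in beta-glucan (median 252) and 574 to 1987 in anti-CD40 tumours (median 721). Combination tumours had 1257, 679, 1136, 1403 and 803, and untreated tumours 41.6, 25.9, 60.5, 51.6 and 164. The treated groups did not overlap with untreated tumours, and the anti-CD40 and combination tumours were all above the beta-glucan tumours. Its log2 rise was 2.34 ± 0.37 after beta-glucan (adjusted p = 2.7e-04), 3.89 ± 0.37 after anti-CD40 (2.4e-07) and 4.15 ± 0.38 in the combination (4.3e-08), the last a 17.8-fold rise on the log2(normalized count + 1) scale. These calls passed in all 31 alternatives.

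Of the 13 GTPases, 6 rose after beta-glucan, 11 after anti-CD40 and 12 in the combination, where 5.09%, 11% and 18.2% of all genes did. Leaving out any 1 tumour gave 3 to 10 after beta-glucan, 11 after anti-CD40 and 11 to 12 in the combination. Scaled to equal totals, none passed after beta-glucan. Their median log2 difference from untreated tumours was 1.13 after beta-glucan, 2.61 after anti-CD40 and 2.41 in the combination, and 12, 13 and 13 of the 13 differences were positive. Gbp2, which coats pathogen vacuoles and bacteria, had 369.6 to 1887 normalized counts in beta-glucan (median 1139.7), 1353 to 3646 in anti-CD40 (median 2783), 2958, 2747, 2913, 964 and 2306 in combination, and 505, 213, 233, 267 and 148 in untreated tumours. Anti-CD40 and combination tumours all lay above untreated tumours, while the beta-glucan range overlapped at its low end. Gbp2 rose by 1.91 ± 0.39, 3.30 ± 0.39 and 3.13 ± 0.40 in the 3 treated groups (adjusted p = 0.00335, 3.5e-06 and 3.6e-06).

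Gbp5, a guanylate-binding protein known for promoting inflammasome assembly, had 72.2 to 249 normalized counts in beta-glucan (median 150.4), 228 to 614 in anti-CD40 (median 344), 529, 482, 434, 306 and 459.7 in combination, and 61.6, 51.8, 27.2, 33.2 and 77.6 in untreated tumours. Beta-glucan tumours reached down into the untreated range and the other treated tumours did not. Its rise was 1.54 ± 0.31, 2.90 ± 0.31 and 3.19 ± 0.33 (adjusted p = 0.00329, 8.2e-07 and 1.5e-07). Gbp4 had 74.1 to 439 normalized counts in beta-glucan (median 165), 405 to 1197 in anti-CD40 (median 649), 691, 812, 730.3, 153 and 733 in combination, and 64.1, 32.8, 34.2, 12.6 and 85.1 in untreated tumours. Combination tumour 4 lay far below the other 4 of its group and still above every untreated tumour. The log2 rise of Gbp4 was 2.08 ± 0.51, 4.05 ± 0.51 and 3.79 ± 0.53 (adjusted p = 0.0141, 8.0e-06 and 9.4e-06). Gbp8 had 22.8 to 159 normalized counts in beta-glucan (median 77.9), 181 to 389 in anti-CD40 (median 224), 246, 309, 294, 133 and 356 in combination, and 50.7, 49.2, 21.9, 27.5 and 15.0 in untreated tumours. It rose by 3.03 ± 0.39 after anti-CD40 and 3.06 ± 0.41 in the combination (adjusted p = 8.9e-06 and 4.7e-06), and differed by 1.24 after beta-glucan (adjusted p = 0.0604).

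Igtp, an immunity-related GTPase that regulates the others at membranes, had 961 to 2794 normalized counts in beta-glucan (median 1969), 3509.9 to 9751 in anti-CD40 (median 4720.2), 5142, 3785, 5199, 3109.6 and 3166 in combination, and 1539, 470.4, 573, 890.1 and 953 in untreated tumours. All anti-CD40 and combination tumours exceeded all beta-glucan and all untreated tumours. Igtp rose by 1.11 ± 0.32, 2.64 ± 0.32 and 2.29 ± 0.33 (adjusted p = 0.0372, 4.1e-06 and 1.2e-05), and the beta-glucan call was lost in 10 of 31 alternatives (adjusted p 0.0149 to 0.255).

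The other GTPases divided by family and level. In the chromosome 3 cluster (Gbp2, Gbp3, Gbp5, Gbp7), 3 of 4 rose after beta-glucan and 4 of 4 after anti-CD40 and in the combination, Gbp7 by 1.13, 1.82 and 1.74. In the chromosome 5 cluster (Gbp4, Gbp6, Gbp8, Gbp9), 1, 3 and 4 of 4 rose. Of the 5 immunity-related GTPases, 2, 4 and 4 rose, among them the effector Iigp1 (1.40, 3.15 and 2.65; adjusted p = 0.0496, 1.9e-05 and 7.7e-05). Gbp3, Gbp9, Irgm1 and Irgm2 differed by 0.97 to 1.30 after beta-glucan without passing and rose by 1.67 to 2.61 in the other groups. Gbp6 had few reads: the combination tumours held 10.9, 25.6, 20.8, 14.6 and 20.4 normalized counts, against 0, 0, 0, 5.73 and 18.8 in untreated tumours, a rise of 2.82 ± 1.01 (adjusted p = 0.033) with overlapping ranges. Tgtp1 passed in no comparison (0.55, 0.34 and 1.63), with 0 to 56.7 normalized counts over all tumours. Members of these clusters are near-identical in places, and in GENCODE M21 the gene spans of Gbp4, Gbp8 and Gbp9 overlap, as do those of Igtp and Irgm2, so reads may be shared between them and the split among them is uncertain.

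**Figure D2:**
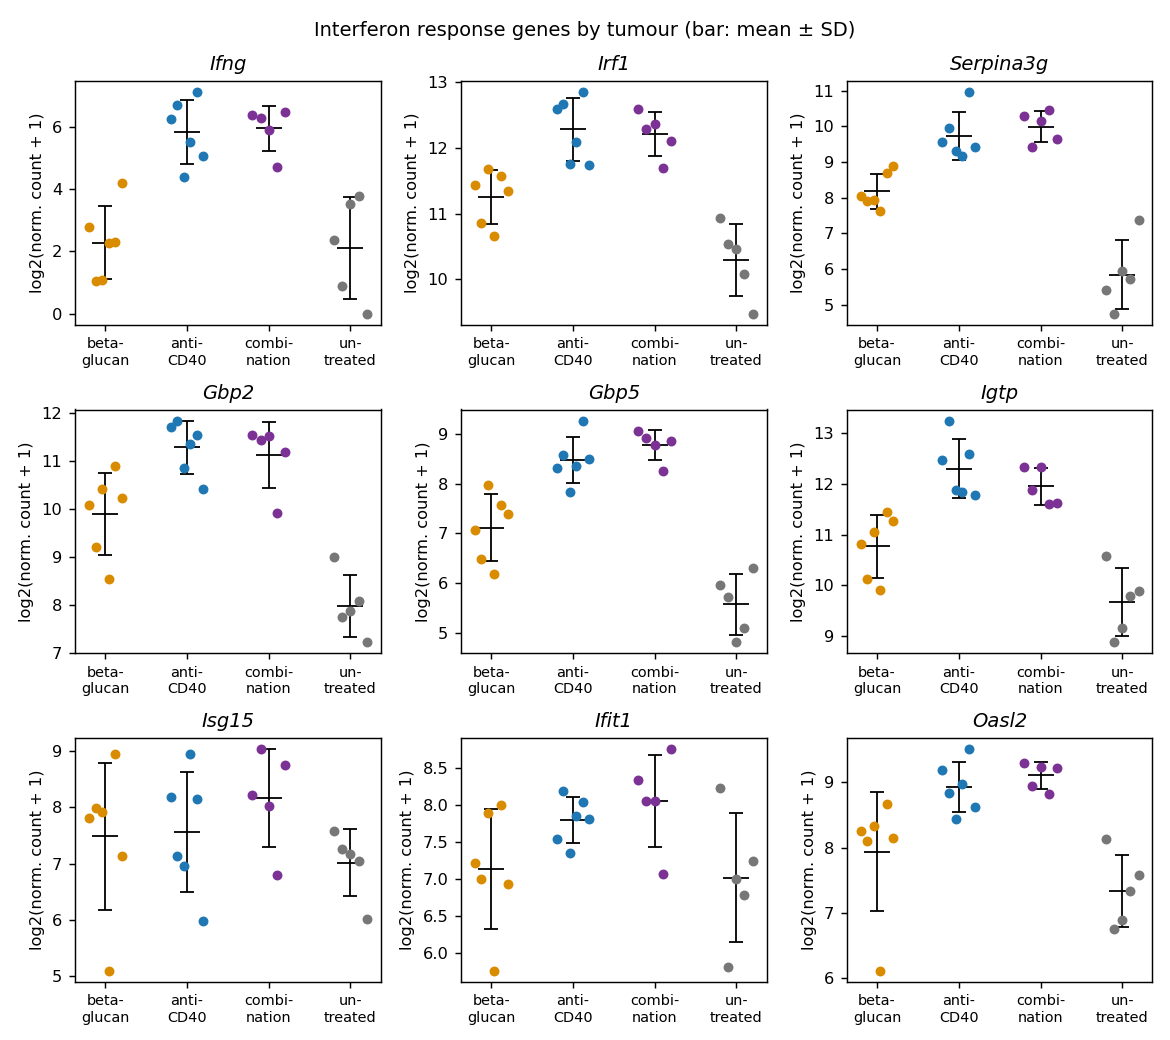
Level of 9 genes in each tumour on the log2(normalized count + 1) scale, with the treated groups left of untreated and bars for the mean ± SD. Anti-CD40 and combination tumours are above all untreated tumours for Ifng, Irf1, Serpina3g, Gbp2, Gbp5, Igtp and Oasl2, and groups overlap for Isg15 and Ifit1.

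Of the 21 antiviral genes tested, 1 rose after beta-glucan, 8 after anti-CD40 and 14 in the combination, where 5.09%, 11% and 18.2% of all genes did. The beta-glucan count was thus near the share over all genes. Scaled to equal totals 0, 1 and 5 passed, and with an acinar covariate 4 passed after anti-CD40. Their median log2 difference was 0.24, 0.80 and 1.15, and 14, 17 and 17 of the 21 differences were positive. Isg15, the ubiquitin-like modifier induced by type I interferon, passed in no comparison. It had 33.3 to 497 normalized counts in beta-glucan (median 233), 62.5 to 496 in anti-CD40 (median 211), 298, 525, 259, 110.2 and 429 in combination, and 191, 153, 144, 132 and 63.9 in untreated tumours. All groups overlapped, and the differences were 0.47, 0.54 and 1.15 (adjusted p = 0.725, 0.559 and 0.144), the last with a 95% interval of -0.08 to 2.37. Ifit1, which binds viral RNA at its cap, had 53.2 to 255 normalized counts in beta-glucan (median 137), 162 to 290.4 in anti-CD40 (median 226), 321, 265, 263, 133 and 431 in combination, and 299, 55.2, 127, 109 and 150.3 in untreated tumours. Groups overlapped here too. It rose by 1.04 ± 0.40 in the combination (adjusted p = 0.0475), a call lost in 22 of 31 alternatives (adjusted p 0.0119 to 0.388), and differed by 0.12 and 0.78 after beta-glucan and anti-CD40.

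Oasl2, a member of the oligoadenylate synthetase-like family, had 68.4 to 405 normalized counts in beta-glucan (median 293), 346 to 727 in anti-CD40 (median 478), 626, 492, 603, 450.3 and 595 in combination, and 279, 107, 118, 160.4 and 190.3 in untreated tumours. Anti-CD40 and combination tumours were all above untreated tumours. Oasl2 rose by 1.59 ± 0.33 after anti-CD40 and 1.77 ± 0.35 in the combination (adjusted p = 0.00149 and 3.5e-04), and differed by 0.60 after beta-glucan (adjusted p = 0.344). Parp14, an ADP-ribosyltransferase, had 459.8 to 856 normalized counts in beta-glucan (median 759), 976 to 1874 in anti-CD40 (median 1159.7), 1441, 1083, 1228, 1393 and 1020.4 in combination, and 686, 354, 364, 448 and 649.9 in untreated tumours. The anti-CD40 and combination groups again stood clear of untreated tumours, with rises of 1.40 ± 0.22 and 1.34 ± 0.23 (adjusted p = 8.2e-05 and 8.3e-05), and the beta-glucan difference was 0.55 (adjusted p = 0.159). Trim30a, a mouse TRIM protein that dampens Toll-like receptor signalling, had 276 to 962 normalized counts in beta-glucan (median 528), 428 to 1197 in anti-CD40 (median 675), 1421, 1309.5, 1042, 853 and 1417 in combination, and 240.4, 123, 189.5, 302 and 473 in untreated tumours. Combination tumours were clear of untreated tumours and the other treated groups overlapped them. Trim30a rose by 1.16 ± 0.31, 1.49 ± 0.31 and 2.30 ± 0.33 (adjusted p = 0.0253, 0.00155 and 9.2e-06).

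The other antiviral genes spread by family. All 3 RNA sensors (Ifih1, Ddx58 and Dhx58) rose in the combination, by 0.81 to 1.74, and Ddx58, which encodes RIG-I, rose by 1.03 after anti-CD40. All 3 Ifit genes (Ifit1, Ifit2 and Ifit3), which act together on viral RNA, rose in the combination, by 1.04 to 2.04, and Ifit2 also after anti-CD40. Bst2 (tetherin, which holds budding virus at the cell surface), Ifi44 and Cmpk2 (a mitochondrial nucleotide kinase) rose after anti-CD40 by 1.06, 1.34 and 2.37 and in the combination by 1.04, 1.56 and 2.90. Oas3, which makes the oligoadenylates that activate RNase L, and Rtp4 rose in the combination by 1.20 and 0.99. Oas2 and Rsad2 (viperin) did not pass in any group, with 1.22 and 1.14 in the combination (adjusted p = 0.0523 and 0.061).

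Differences of 4 antiviral genes were negative in all 3 treated groups, though none passed. Mx1 and Mx2, dynamin-like GTPases that block virus replication and are disrupted in many inbred mouse strains, differed by -0.98 and -1.59 after beta-glucan (adjusted p = 0.136 and 0.196), -0.64 and -1.61 after anti-CD40 and -0.42 and -0.09 in the combination. Mx1 had 21.9 to 52.6 normalized counts in beta-glucan (median 35.5), 26.0 to 76.9 in anti-CD40 (median 42.7), 25.7, 41.4, 75.9, 45.2 and 80.5 in combination, and 88.2, 49.2, 48.3, 92.8 and 67.6 in untreated tumours. The beta-glucan tumours sat low with some overlap, and GENCODE M21 lists Mx2 as a polymorphic pseudogene. Oasl1, which in mice represses translation of Irf7, differed by -0.78, -0.61 and -0.76, and Xaf1, an antagonist of an apoptosis inhibitor, by -0.70, -0.05 and -0.65. Oas1a was not tested, with 0 to 29.2 normalized counts over all tumours.

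GTPases and antiviral genes were then set against each other within each tumour, as the mean log2 level of each class relative to its mean in untreated tumours. The 13 GTPases stood at -0.24 to 1.93 in beta-glucan (median 1.37), 1.64 to 2.95 in anti-CD40 (median 2.44), 2.72, 2.76, 2.82, 1.70 and 2.57 in combination, and 0.46, -0.18, -0.53, 0.02 and 0.23 in untreated tumours. The 21 antiviral genes stood at -1.07 to 0.78 in beta-glucan (median 0.31), 0.45 to 1.24 in anti-CD40 (median 0.71), 1.20, 1.19, 1.04, 0.79 and 1.19 in combination, and 0.57, -0.89, -0.28, 0.12 and 0.47 in untreated tumours. For the GTPases, anti-CD40 and combination tumours were all above untreated tumours. For the antiviral genes, the combination tumours were, and the beta-glucan and anti-CD40 tumours overlapped the untreated range. The GTPase value exceeded the antiviral value in all 17 treated tumours, by a median of 1.17 in beta-glucan, 1.61 in anti-CD40 and 1.52 in combination tumours, and by -0.11 in untreated tumours, where untreated tumour 2 reached 0.71. Members of a class share tumours, regulators and in part sequence, so these means are descriptions.

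**Figure D3:**
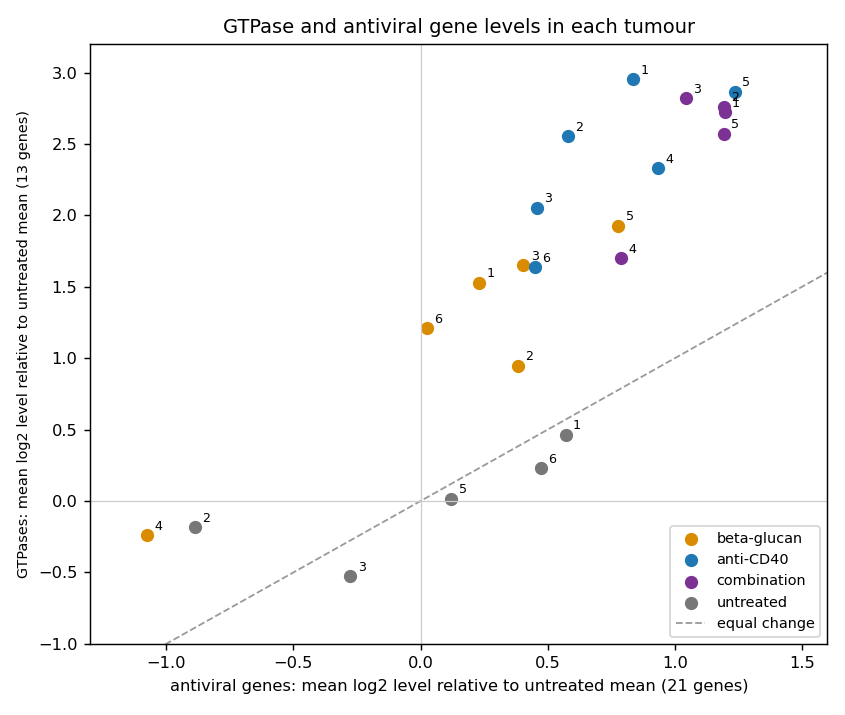
Mean log2 level of the 13 GTPases (vertical axis) against that of the 21 antiviral genes (horizontal axis) in each tumour, both relative to the mean of untreated tumours; numbers are replicate numbers and the dashed line marks equal change. All 17 treated tumours lie above the dashed line, and beta-glucan tumour 4 lies within the untreated range for the GTPases and below it for the antiviral genes.

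Single tumours weighed on both classes. Beta-glucan tumour 4 was the lowest of its group for 12 of 13 GTPases and 18 of 21 antiviral genes, and untreated tumour 2 was the lowest of its group for 16 antiviral genes. Combination tumour 4 was the lowest of its group for 11 GTPases and 11 antiviral genes, and its acinar reads were 34.8% of the library, beside 34.3% in combination tumour 5, which was the lowest for 1 GTPase and 3 antiviral genes. Combination tumour 4 also had the largest share of reads on the ribosomal RNA gene Rn45s of its group (4.79%, against 1.84% to 2.44% in the others) and the fewest genes with reads (14078, against 15357 to 15554), and their part in its values was not tested. Without beta-glucan tumour 4, 14 members rose after beta-glucan (10 GTPases); without beta-glucan 3 or 5, 4 did, and without untreated 2, 3 or 5, 5 did, so the count of 9 depends on single tumours. Among the genes called after beta-glucan and described above with their tumour values, the call was lost in 10 of 31 alternatives for Igtp, 7 for Irf1, 6 for Trim30a, 2 for Gbp4 and 1 each for Gbp2 and Gbp5. Leaving out any 1 tumour left 22 to 27 members called after anti-CD40 and 28 to 34 in the combination, with 11 GTPases after anti-CD40 each time. Without the 5 tumours over 30% acinar reads, 12, 23 and 29 members rose.

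Set against beta-glucan, the combination raised 27 of 44 members, where 6.49% of all genes were higher, and lowered none, where 7.61% of all genes were lower. They comprised 8 GTPases, 11 antiviral genes, all 4 transcription factors, Ifng, Ifngr1, Usp18 and Serpina3g. Ifng is counted here although it passed the filter on low values only through the anti-CD40 and combination groups. With values as above, Ifng was higher by 3.67 ± 0.71 (adjusted p = 0.00156), Irf1 by 0.95 ± 0.26 (0.0153), Irf7 by 1.42 ± 0.32 (0.00445), Gbp5 by 1.65 ± 0.31 (0.00142), Igtp by 1.19 ± 0.32 (0.0145) and Oasl2 by 1.17 ± 0.33 (0.0199). For these 6 genes, and 16 members in all, every combination tumour lay above every beta-glucan tumour, which held for 5.68% of all genes. Gbp2 was higher by 1.22 ± 0.39 (0.0358) with overlap, a call lost in 9 of 31 alternatives, while Isg15 and Ifit1 did not pass (0.68 and 0.92). The count was 17 without beta-glucan 4 or combination 1, and 16 without the 5 tumours over 30% acinar reads, where 3 antiviral genes passed. Scaling to equal totals left 1 member, and 11% of the calls over all genes were then higher, beside 46% in the main analysis.

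Anti-CD40 against beta-glucan raised 14 members (1.61% of all genes), namely 8 GTPases, Ifng, Stat2, Irf1, Usp18, Serpina3g and the antiviral gene Parp14, and none was lower (0.49% of all genes). Ifng again had passed the filter on low values only through the anti-CD40 and combination groups. In 10 members every anti-CD40 tumour lay above every beta-glucan tumour, as in 1.44% of all genes. Ifng was higher by 3.55 ± 0.67 (adjusted p = 0.00446), Irf1 by 1.03 ± 0.25 (0.0265), Gbp5 by 1.36 ± 0.30 (0.0147) and Igtp by 1.53 ± 0.30 (0.00654). Irf7 and Oasl2 differed by 1.07 and 0.99 without passing (adjusted p = 0.0683 and 0.117), and Isg15 by 0.08. Gbp2 was higher by 1.39 ± 0.37 (0.0482), a call lost in 22 of 31 alternatives. The count was 7 without anti-CD40 2 or 5 or beta-glucan 2 or 4, 9 without beta-glucan 6, and 8 without the 5 tumours over 30% acinar reads. It was 0 at equal totals, where 44.1% of the calls over all genes were higher, beside 76.7% in the main analysis.

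The combination did not differ from anti-CD40 alone at any of the 44 members by limma, edgeR or DESeq2, where 0.658% of all genes were higher and 0.826% lower by limma. At an unadjusted p under 0.05 there were 2 members, Trim30a (0.81, 95% interval 0.16 to 1.45) and Mx2 (1.52, 0.10 to 2.93), where 15.7% of all genes passed. The median difference was 0.26 over the antiviral genes and -0.08 over the GTPases, beside 0.01 over all genes. When tumours were scaled to equal totals, the GTPase median was 0.05, beside 0.13 over all genes. Intervals were wide: the difference was 0.12 (-1.34 to 1.58) for Ifng, -0.07 (-0.61 to 0.46) for Irf1, 0.35 (-0.30 to 1.01) for Irf7, -0.17 (-0.97 to 0.63) for Gbp2, 0.29 (-0.35 to 0.94) for Gbp5 and -0.34 (-1.001 to 0.31) for Igtp. For the antiviral genes Isg15, Ifit1 and Oasl2 it was 0.60 (-0.57 to 1.78), 0.26 (-0.53 to 1.04) and 0.18 (-0.51 to 0.86). These intervals do not show that the treatments act alike on these genes.

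Whether the combination departed from the sum of both single treatments was tested as an interaction, the combination difference minus both single differences on the log2 scale. No member passed by limma or edgeR at an adjusted p of 0.05, and 3 of all 14278 genes (0.021%) did, all lower by limma. Unadjusted p was under 0.05 for 14 members (8.36% of all genes), among them 10 of 13 GTPases, all 10 below the sum. Of these 14 members 12 were below the sum, and of the 1194 genes with such a p among all genes 743 were. As a share of all tested, this was 12 of 44 members, beside 5.2% of all genes. Mx1 and Mx2 were above the sum. The interaction was -2.08 ± 0.55 for Gbp2 (adjusted p = 0.209), -2.33 ± 0.71 for Gbp4 (0.274), -1.45 ± 0.45 for Igtp (0.280), -1.24 ± 0.44 for Gbp5 (0.373) and -1.04 ± 0.37 for Irf1 (0.364). For Ifng it was -0.05 (95% interval -2.12 to 2.01), for Isg15 0.14, for Ifit1 0.14, for Oasl2 -0.42 and for Irf7 0.51. DESeq2 on the recovered reads called Serpina3g, Gbp2 and Iigp1 below the sum, and limma without untreated tumour 6 called Serpina3g.

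Other genes of the pathway, listed with earlier results of these data known, were tested in the same comparisons. Of 68 further interferon genes listed, 63 were tested, and 14 rose and 1 fell after beta-glucan, 37 rose and 1 fell after anti-CD40, and 46 rose and 2 fell in the combination. Of all genes, 5.09%, 11% and 18.2% rose and 1.32%, 7.56% and 15.8% fell. Cxcl9, a chemokine induced by interferon-gamma that draws T cells, had 1169 to 3213 normalized counts in beta-glucan (median 2504), 5583 to 14326 in anti-CD40 (median 7522), 9931, 7175, 9300.1, 4761 and 7179 in combination, and 1275, 468, 353, 711 and 834 in untreated tumours. Anti-CD40 and combination tumours were all above the rest, and Cxcl9 rose by 1.68, 3.57 and 3.49 (adjusted p = 0.00208, 1.3e-07 and 7.5e-08). Irf8, a factor of myeloid cells, rose by 0.99, 2.12 and 2.41, and Samhd1, which depletes nucleotides needed by retroviruses, by 1.11, 2.15 and 2.42. B2m, the light chain of class I antigen presentation, rose by 1.09, 1.65 and 2.04, and the peptide transporter Tap1 by 1.07, 2.32 and 2.45. Ifi47, another immunity-related GTPase, rose by 1.25, 2.23 and 2.38, and Nlrc5, the activator of class I genes, by 1.17, 2.35 and 2.17. Il12rb1, a chain of the interleukin-12 receptor, which drives interferon-gamma production, rose by 2.22, 4.25 and 4.15. It had 9.98, 1.73, 6.14, 3.44 and 2.50 normalized counts in untreated tumours. None of these reached 10, so Il12rb1 passed the filter on low values only through treated tumours, in which it was higher. Sp100, a nuclear body protein, was among the smallest p-values of the combination (2.71, adjusted p = 5.9e-07).

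Il18, a cytokine that promotes interferon-gamma release, fell in every treated group. It had 83.4 to 152 normalized counts in beta-glucan (median 116), 105 to 198 in anti-CD40 (median 139), 155, 176, 136, 162 and 155 in combination, and 330.3, 391, 225, 243 and 239 in untreated tumours. No treated tumour reached the untreated range, and Il18 fell by 1.30, 0.98 and 0.83 on the log2 scale (adjusted p = 5.7e-04, 0.00268 and 0.00667). Isg20, an interferon-induced exonuclease named here after its values were seen, fell by 1.26 in the combination (adjusted p = 0.00147).

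**Figure D4:**
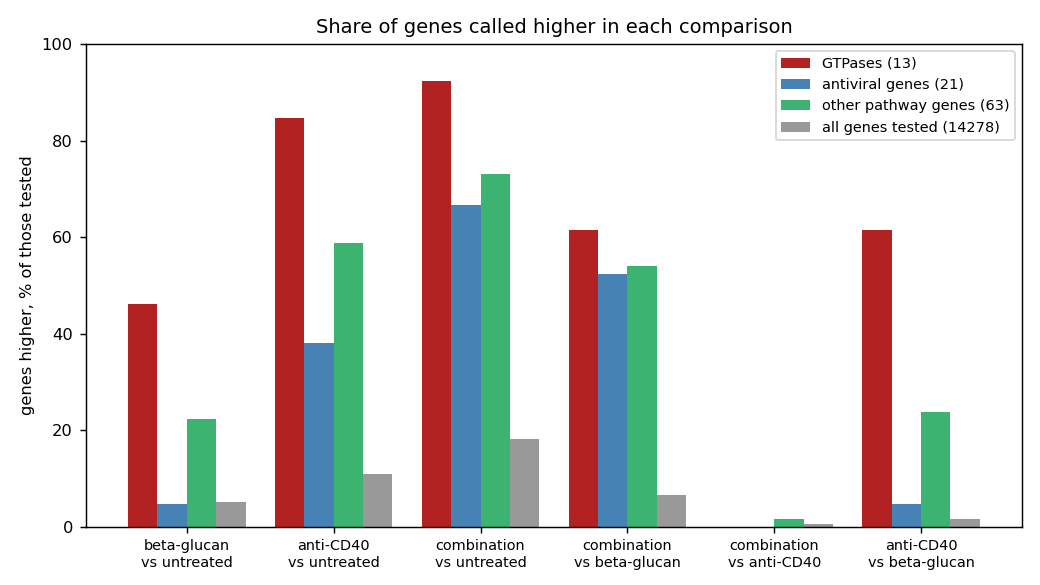
Share of genes called higher by limma (adjusted p under 0.05), in percent of those tested, for 13 GTPases, 21 antiviral genes, 63 other pathway genes and all 14278 genes in 6 comparisons. The GTPase bar is the highest in the 3 comparisons with untreated tumours and in both treatment comparisons with beta-glucan; no member was called in the combination against anti-CD40.

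Markers of several cell types also differed from untreated tumours, not all of them in every treated group. Of all genes, 5.09%, 11% and 18.2% rose and 1.32%, 7.56% and 15.8% fell after beta-glucan, anti-CD40 and the combination. The summed level of 8 T cell genes (Cd3e, Cd8a and others) was 158 to 598 normalized counts in beta-glucan (median 387), 1261 to 5232 in anti-CD40 (median 2011), 1983 to 3532 in combination (median 2647) and 83.4 to 422 in untreated tumours (median 224), and 0, 7 and 8 of the 8 genes rose. Of 7 macrophage genes, 3, 5 and 7 rose, and their summed level was 24702 to 37001.5 normalized counts in beta-glucan (median 30004), 30844 to 81403 in anti-CD40 (median 39806), 42230.5 to 98987 in combination (median 65737) and 11323 to 68760.1 in untreated tumours (median 14367). Of the 8 epithelial genes, 2, 7 and 8 fell. The summed level of 5 natural killer cell genes was 56.1 to 266 normalized counts in beta-glucan (median 134), 477 to 1711 in anti-CD40 (median 737), 603 to 1336 in combination (median 761) and 37.7 to 161 in untreated tumours (median 126). Of the 3 that were tested, Nkg7, a granule gene that T cells also express, rose after anti-CD40 and in the combination, and none rose after beta-glucan. Ncr1, the defining gene of that list, had no reads in 4 of 6 beta-glucan, 2 of 6 anti-CD40, 3 of 5 combination and 5 of 5 untreated tumours, and at most 10.2 normalized counts. Siglech, a gene of plasmacytoid dendritic cells, which are a source of type I interferon, had 0.95 to 36.7 normalized counts in beta-glucan (median 13.5), 19.8 to 60.6 in anti-CD40 (median 40.2), 9.17 to 74.9 in combination (median 33.2) and 0 to 7.9 in untreated tumours (median 0.863). Of the 5 genes of its list, 0, 2 and 4 rose. That list also holds Klk1, whose median was 16133 in anti-CD40 and 19735 in combination tumours, beside 16248 and 19970 for the whole list. The list sum was highest in anti-CD40 tumour 6, at 94450, where acinar reads were 64.7%. The list count is therefore no measure of these cells alone, and the part of acinar tissue was not tested.

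Other lists differed from untreated tumours as well. Of 5 neutrophil genes, 4, 3 and 5 rose and 1 fell after anti-CD40, with a summed level of 4048 to 11045 normalized counts in beta-glucan, 790.4 to 19283 in anti-CD40, 19373 to 25607 in combination and 907 to 1996 in untreated tumours. Of 4 B cell genes tested, 1, 4 and 4 rose, and the list of 5 summed to 44.7 to 472, 560 to 1357 and 559 to 1428 in beta-glucan, anti-CD40 and combination tumours, against 4.16 to 96.4 in untreated tumours. Of 5 fibroblast genes, 4, 3 and 5 rose, with sums of 50521 to 131101, 24971 to 90124 and 112760.0 to 136186 in the treated groups, against 21483.5 to 44177 in untreated tumours. Of 4 endothelial genes, 1, 3 and 4 rose, with sums of 1509.7 to 2634, 1669.9 to 5781 and 2828 to 5025, against 959.8 to 1401 in untreated tumours. Of 3 monocyte genes 1, 2 and 2 rose, with sums of 432 to 1975, 1339.9 to 4009.6 and 2080.1 to 6048, against 384 to 2228, and of 5 conventional dendritic cell genes 1, 1 and 2 rose, with sums of 727 to 1448, 567.8 to 1729 and 775 to 1607, against 159.7 to 794. The part of these cell types in the interferon response values was not tested.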

How the data were processed

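Libraries were made from 100 ng of RNA of 5 µm fixed sections with a forward 3′ kit, per the labels' protocols, so a value reads transcript 3′ ends. Reads were processed with STAR, DESeq2 and mm10, per the submitters' processing notes. The sources used here do not name the counting program, the annotation or the strand setting. The unit of the deposited values is a signal: read counts that the authors scaled by 1 size factor per tumour, called normalized counts here. Within each tumour they were whole multiples of 1 step: 100% of 395252 values were whole within 0.001 reads, which gave recovered read counts of 6327092 to 21173617 per tumour. Over 50 pairs within groups the smallest ratio of chi-square to its degrees of freedom was 13.4, so no library was counted as a duplicate. The table held 23 names turned into dates.

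Groups came from the labels. Genes with at least 10 normalized counts in at least 5 tumours were fitted with limma 3.58.1 (R 4.3.3) on log2(value + 1) over all 4 groups, with trended and robust variance moderation, 2-sided, and Benjamini-Hochberg adjustment over 14278 genes in each comparison; errors are standard errors and intervals are 95%. The fits were first tested on simulated data. Alternatives were a pseudocount of 8, no filter, edgeR 4.0.16 (TMM, quasi-likelihood) and DESeq2 1.42.0 on recovered reads, equal totals, an acinar covariate, a replicate block and leaving out each tumour. Equal totals without acinar genes, and leaving out 5 acinar-rich tumours, were added after seeing the data. In each role group and comparison with untreated tumours, up to 3 members with the smallest p were given with tumour values and tests, as were Ifng, Irf1, Irf7, Gbp2, Gbp5, Igtp, Isg15, Ifit1 and Oasl2 in every comparison; of the pathway genes up to 6 with the smallest p were named per comparison. Members, lists and tests were chosen with earlier results of these data known. Positions are GENCODE M21 and promoters RefSeq, both GRCm38. Ifnb1 was not analysed here.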

Additional observations from a re-analysis of the deposited data

Results flagged for a closer look

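In each group the highest and lowest tumour was compared with the others for 92 combinations of a gene, or the mean level of a gene class, and a group. By Dixon's test at 95%, 9 stood apart. Chance gives about 1 in 20 for independent, normally distributed values. Normalized counts of genes from the same tumours need be neither, so the rate to be met by chance here is not known. Ifng was high in beta-glucan tumour 6, at 17.2 normalized counts. Ifngr1 was high in anti-CD40 tumour 5, at 4699. Ifngr2 was low in combination tumour 4, at 73.1, and in untreated tumour 6, at 97.7. Usp18 was high in untreated tumour 5, at 297.8. Serpina3g was high in anti-CD40 tumour 5, at 1987, and in untreated tumour 6, at 164.0. Gbp4 was low in combination tumour 4, at 152.8, and the mean log2 level of the GTPases was low in the same tumour, at 1.70 above the untreated mean.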

How the results depend on the processing

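Of 44 results called for single named genes, 18 passed in all 31 alternatives and 26 lost the call in at least 1; none changed direction. Of 47 named results not called, 20 changed sign and 6 passed in at least 1 alternative, none with a changed sign. Scaling to equal totals moved the median log2 of all genes to -0.56 for anti-CD40 and -0.45 for the combination against untreated, -0.64 for anti-CD40 and -0.48 for the combination against beta-glucan. The share of calls of all genes that were higher was then 22.4% for anti-CD40, against 59.3% in the main analysis, 33.2% against 53.6% for the combination and 93.4% against 79.4% for beta-glucan. Members called were then 1 for beta-glucan, 12 for anti-CD40, 18 for the combination, 1 for the combination against beta-glucan and 0 for anti-CD40 against beta-glucan, with 0 GTPases for beta-glucan and 0, 1 and 5 antiviral genes. Relative to the median of all genes the GTPase medians were 1.11, 2.59 and 2.41 there and 1.11, 2.60 and 2.41 in the main analysis. Equal totals without acinar genes left 8 members in the combination and 3 in anti-CD40 against beta-glucan. Without the 5 acinar-rich tumours these were 16 and 8. With an acinar covariate 9 members passed in anti-CD40 against beta-glucan and 4 antiviral genes in anti-CD40 against untreated. DESeq2 called 3 members in the interaction. The causes were not tested.

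Leaving out each tumour in turn gave 4 to 14 members called for beta-glucan, 22 to 27 for anti-CD40, 28 to 34 for the combination (33 higher and 1 lower without anti-CD40 tumour 6), 17 to 29 for the combination and 7 to 16 for anti-CD40 against beta-glucan, 0 for the combination against anti-CD40 and 0 to 1 for the interaction. GTPases called ranged over 3 to 10, 11 to 11 and 11 to 12, and antiviral genes over 0 to 2, 7 to 11 and 11 to 16, in the beta-glucan, anti-CD40 and combination groups. Same-numbered tumours had residual correlations of -0.271 to 0.338 over 30 pairs (median 0.028). Tumours of different numbers had -0.403 to 0.403 over 151 pairs (median 0.003), and 5 of 22 tumours correlated best with their own number. Weak correlations over all genes cannot show whether tumours of the same number shared an origin. Combination tumour 5 carries the number 6 in the deposited table. Its correlations with the tumours numbered 6 were -0.254, 0.161 and -0.147 in beta-glucan, anti-CD40 and untreated, beside 0.295, -0.144 and -0.0169 with those numbered 5. With a replicate block, 13 members and 10 GTPases were called for beta-glucan, and no count in another comparison moved by over 1.5 times.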
